A study of Rattus norvegicus with 28 samples.

Results

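The RNAs described here are the 19 rows of the rat brain files with an annotated length of 110 bases or less and a mean level of at least 1 CPM (the expected count scaled to the library's total of gene counts) over 28 libraries. They were chosen from 2965 rows of that length, of which 787 had a count in any library, among 32623 gene rows in all. The level itself was thus used for the choice, and levels are given as a description. ENSRNOG00000058803, ENSRNOG00000061656 and ENSRNOG00000057278 lay just inside the threshold, at 1.42, 1.38 and 1.12 CPM. Just outside lay ENSRNOG00000059948, ENSRNOG00000053764 and ENSRNOG00000052617, at 0.903, 0.782 and 0.750 CPM.

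The libraries came from whole brains of 2 inbred rat strains, BN-Lx/Cub and SHR/OlaIpcv, and the study asked how sex, stage of the estrous cycle and strain act together on brain RNA. Each strain had 12 females, with 4 at pre-estrus, 4 at estrus and 4 at post-estrus, and 2 males. No treatment or age is given for the animals, and the labels call the libraries of a group biological replicates, so p-values measure the spread between these libraries. In BN-Lx at pre-estrus, 2 libraries share the replicate number 7 (titled 7a and 7b). Whether they came from 1 animal is not stated, and they were counted as 2; without either of them, the numbers of short RNAs called between strains were the same as with both, 3 in females and 1 in males. Gene counts ranged from 42446718 to 87923728 per library, with 1.46% to 6.05% of all counts in synthetic spike-in RNAs. The sample descriptions end in b35 for 15 libraries and in b37 for 13. What this suffix means is not stated, and it was carried as a possible technical batch. It was uneven between the strains: 5 BN-Lx and 7 SHR females were b35, and 7 and 5 were b37. Both BN-Lx males were b35, and the SHR males were 1 of each. The files give identifiers without names, so the brain markers could not be looked up and the kind of each short RNA is not known here. In whole tissue, fewer cells of a type and less RNA per cell cannot be told apart.

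Transcripts of this size in mammals include transfer RNAs, microRNA hairpins and small nucleolar RNAs, which guide chemical modification of ribosomal and other RNAs. Many of them occur in several near-identical gene copies. Total-RNA libraries keep an RNA of this size only where the sequenced fragment is as short as the RNA itself, and a read that fits several copies has to be divided between them. Both points bear on how the levels below were measured.

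Together the 19 short RNAs held between 0.0126% and 0.231% of a library's gene counts, with a median of 0.0533%. A single RNA of 102 bases, ENSRNOG00000056608, held 73.2% of those counts, and from 54.6% to 87.7% in individual libraries. Its counts were whole numbers (within 0.005) in every library, between 5606 and 107475, and no other short row shared its values.

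In BN-Lx females, ENSRNOG00000056608 stood at 705.7, 286.7, 716.2 and 584.8 CPM at pre-estrus, at 409.9, 92.7, 970.3 and 930.3 CPM at estrus, and at 421.6, 493.7, 1183 and 485.4 CPM at post-estrus. In SHR females it stood at 1547, 337.9, 255.1 and 225.4 CPM at pre-estrus, at 198.9, 654.7, 298.3 and 211.4 CPM at estrus, and at 228.5, 104.4, 545.2 and 1089 CPM at post-estrus. The BN-Lx males were at 1746 and 287.9 CPM and the SHR males at 153.5 and 110.8 CPM. Every female group overlapped every other, and the 2 BN-Lx males lay far apart. SHR minus BN-Lx in females was -0.68 on the log2 scale (SE 0.38, adjusted p = 0.34), a difference within the spread between libraries. By suffix, its mean was 901.2 CPM in b35 and 396.4 CPM in b37 BN-Lx females, and 625.3 and 263.8 CPM in those of SHR. For all 19 short RNAs, not independent of each other, the fitted level was lower in b37 than in b35. The median was -0.51 on the log2 scale, beside 0.02 over all genes. None of the 19 was called for suffix, against 0.0551% of all genes. With DESeq2, an alternative fit, 1 was called, lower in b37, against 0.767% of all genes.

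**Figure D1:**
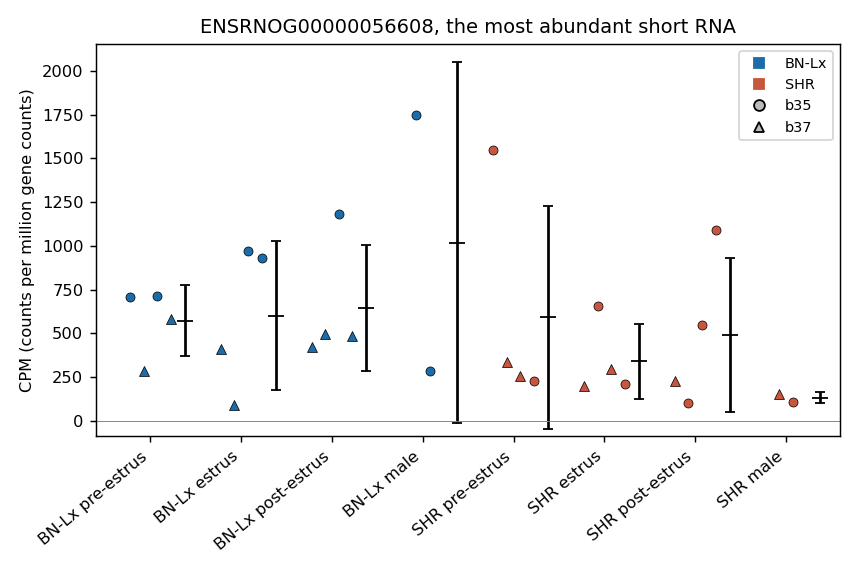
CPM of ENSRNOG00000056608, the most abundant short RNA, in each library (points, circles for suffix b35 and triangles for b37) by strain and stage or sex, with the group mean and SD beside the points. The values run from 92.7 to 1746 CPM, and the 6 female groups overlap.

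The 19 rows held only 13 distinct count profiles. In every library, 9 rows had the same expected count as another member: 4 rows of 93 bases (ENSRNOG00000051811 and 3 others), 3 rows of 70 bases and 2 rows of 78 bases. RSEM, the counting program, divides a read that fits several rows between them, so these are not 9 separate measurements. Of the member values of at least 1, 71.4% were not whole numbers (a value within 0.005 of a whole number was taken as whole), against 54.4% for expressed RNAs longer than 110 and up to 200 bases (121 rows) and 18.9% for longer ones (13859 rows). Only 4 members had whole counts in all libraries by the same tolerance.

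A further row of 93 bases had counts equal to those of the identical rows in SHR only. In the libraries of that strain, ENSRNOG00000052740 had exactly the count of the 4 identical 93-base rows in 14 of 14 libraries. In BN-Lx it matched them in 0 of 14: it had at most 4.84 counts, and at least 1 count in 4 of the 14 libraries, all of suffix b37. Each of the identical rows had 395.3 to 3019 counts in the BN-Lx females. Every SHR library thus gave this row as much as the identical rows, and the BN-Lx libraries gave it little or nothing. The part of read division in this difference was not tested.

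In BN-Lx females ENSRNOG00000052740 stood at 0, 0, 0 and 0.0735 CPM at pre-estrus, at 0.0429, 0, 0 and 0 CPM at estrus, and at 0.0178, 0.0201, 0 and 0 CPM at post-estrus. In SHR females it stood at 87.4, 19.5, 11.1 and 10.3 CPM at pre-estrus, at 11.9, 13.1, 12.6 and 3.64 CPM at estrus, and at 12.7, 3.27, 9.32 and 26.2 CPM at post-estrus. The females of the strains did not overlap, and the SHR males, at 4.09 and 1.75 CPM, were above both BN-Lx males, at 0. In females SHR was higher by 9.78 on the log2 scale (SE 0.68, adjusted p = 8.3e-10, edgeR's quasi-likelihood test), and the difference was called at each stage (log2 10.18, 9.47 and 9.69). The row reached the mean of 1 CPM through SHR alone (16.2 CPM, against 0.0110 CPM in BN-Lx), so these tests draw on the levels that chose it. Its SHR values are those of the identical rows and no separate measurement.

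The sum of the 6 rows of 93 bases was a different matter. It came to 107.1 ± 46.0 CPM in BN-Lx females and to 95.4 ± 117.2 CPM in those of SHR (SD, n = 12 per strain). Entered into the fit in place of its rows, an alternative added after the data had been seen, the sum differed by -0.50 on the log2 scale (SE 0.41, adjusted p = 0.57). The strain difference was called for the single row and not for the sum of the 6. The counts of all 93-base rows of the files summed to within 0.05 of a whole number in only 13 of 28 libraries, so reads may also be shared with rows of other lengths.

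**Figure D2:**
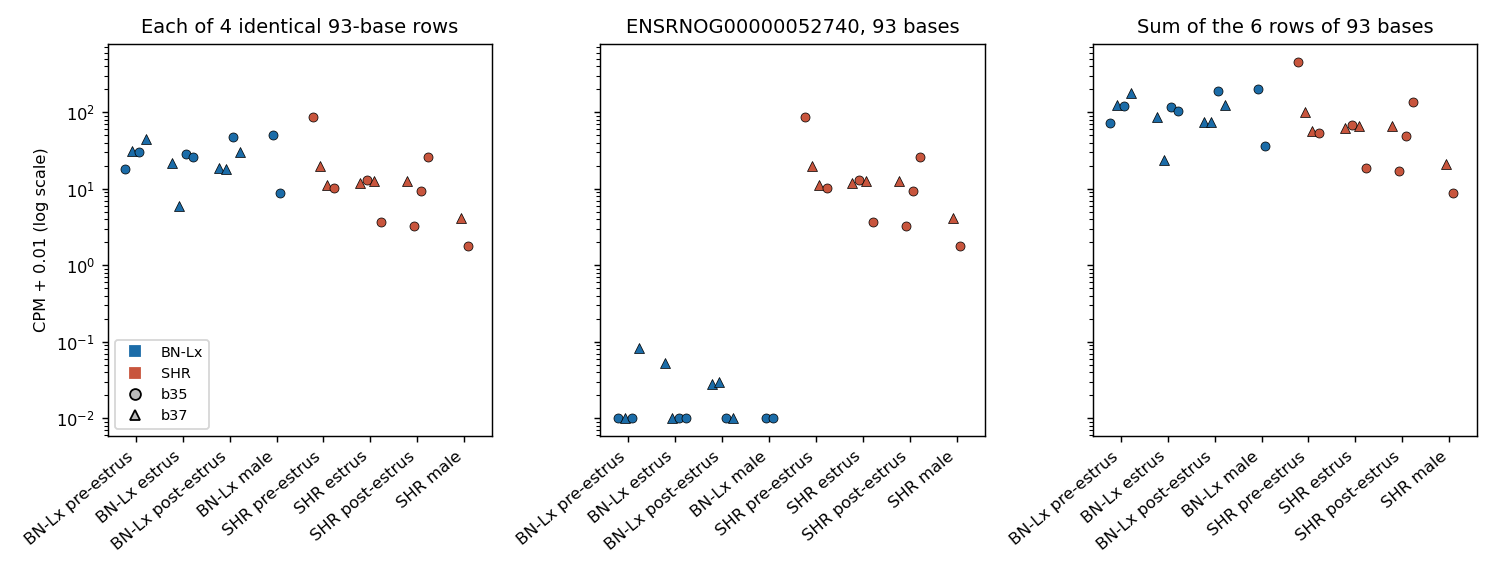
CPM plus 0.01 (log scale) in each library, by strain and stage or sex, for each of the 4 identical 93-base rows (left), for ENSRNOG00000052740 (middle) and for the sum of the 6 rows of 93 bases (right). In the middle panel every BN-Lx library is below 0.1 CPM and every SHR library above 1.7 CPM, while in the other panels the strains overlap.

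Over the females, 3 of the 19 short RNAs passed the test for strain, all higher in SHR and none lower, against 9.51% of 18134 genes tested (4.58% higher and 4.93% lower). The choice of members bears on this count. All 3 reached the mean of 1 CPM through SHR alone, while the other 16 reached it in both strains. Nothing is read from the number or common direction of the 3, and their p-values draw on the levels that chose them. ENSRNOG00000059948, of 78 bases, lay just below the threshold and went the other way. It had up to 536.8 counts in BN-Lx, with at least 1 count in 9 of 14 libraries, and at most 1.13 counts in SHR (log2 -9.22, adjusted p = 0.00046).

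ENSRNOG00000061343, a 78-base RNA, was the other row with no overlap between the females of the strains, a pattern found for 1.56% of all genes tested. It had 0 to 5.08 counts in the BN-Lx females and 44.1 to 1351 in the SHR females. Its level had a median of 0.0182 CPM in BN-Lx females (0 to 0.0877) and of 1.28 CPM in SHR females (0.819 to 19.4). The difference was 6.82 on the log2 scale (SE 0.69, adjusted p = 2.0e-07), and it was called at each of the 3 stages (7.87, 7.07 and 5.53). The row reached the mean of 1 CPM through SHR alone (2.84 CPM, against 0.0258 CPM in BN-Lx). These tests and the lack of overlap thus draw on the levels that chose it. The males of the strains overlapped, with the BN-Lx males at 0.0848 and 0.0249 CPM and the SHR males at 0.531 and 0.0632 CPM.

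ENSRNOG00000059608, of 93 bases, was the third called row, named because only 3 were called and after its values had been seen. Its lowest, median and highest levels were 0.223, 0.729 and 1.54 CPM in BN-Lx females and 0.597, 2.05 and 16.6 CPM in SHR females. The groups overlapped. The difference was 1.69 on the log2 scale (SE 0.45, adjusted p = 0.016). At single stages it was not called (2.42, 1.32 and 1.32, with adjusted p = 0.14, 0.65 and 0.53), nor within b35 or b37 libraries alone (1.98 and 1.39, with adjusted p = 0.18 and 0.061).

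The other 16 short RNAs did not pass. Over all 19, 15 log2 differences were below 0, with a median of -0.32, beside -0.61 for the RNAs longer than 110 and up to 200 bases and 0.02 over all genes tested. By length, 0 of 4 rows of up to 70 bases, 1 of 7 rows of 71 to 90 bases and 2 of 8 rows of 91 to 110 bases were called. Their median log2 differences were -0.32, -0.01 and -0.77. Identical rows count separately in all of these numbers, so the 19 differences are not independent of each other. The 4 identical 93-base rows stood at 26.6 ± 11.4 CPM each in BN-Lx females and at 18.4 ± 22.6 CPM in those of SHR (SD, n = 12), a log2 difference of -0.87 (SE 0.41, adjusted p = 0.23). Without SHR pre-estrus replicate 10 alone, their difference was -1.22 (adjusted p = 0.042), and 7 of the 19 rows were called, against 8.82% of all genes. Those 7 were the 3 rows chosen through their level in SHR and the 4 identical rows, which share the same counts. Nothing is read from their number. The 3 identical 70-base rows stood at 18.9 ± 14.2 and 16.5 ± 19.5 CPM (log2 -0.32, adjusted p = 0.81).

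In males, 1 of the 19 passed for strain, against 0.8% of all genes tested. Of the 19 differences, not independent of each other, 15 were below 0, with a median of -1.75, beside -0.02 over all genes. The SHR males had fragments of 170.6 and 171.9 bases and the BN-Lx males of 139.1 and 167.6 bases. With fragment length in the fit 10 were below 0 and the median was -0.23. The called row was again ENSRNOG00000052740, with 0 counts in both BN-Lx males and 200.1 and 88.5 counts in the SHR males. Against a floor of 3 counts per library, it was at least 30.7-fold higher in the SHR males (adjusted p = 0.030). The call rests on 2 males a strain and on a row chosen through its level in SHR. It was lost without BN-Lx estrus replicate 2, BN-Lx male replicate 1, BN-Lx male replicate 2 or SHR male replicate 1, with adjusted p = 0.056, 0.37, 0.27 and 0.18.

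The length of the sequenced fragments moved with the short RNAs. The mean fragment length of each library was read from the deposited effective lengths, and it ran from 137.3 to 173.0 bases with a median of 151.4. Libraries with shorter fragments had more of their counts in the 19 RNAs. Pearson's r between the share and the fragment length was -0.698 (permutation p = 6.0e-05, adjusted p = 0.00036 over 6 tests) and Spearman's rho was -0.735 (p = 2.0e-05) over 28 libraries. Without the 2 libraries farthest from the median length, r was -0.668. It was -0.578 in BN-Lx, -0.747 in SHR, -0.888 in b35 libraries and -0.625 in b37 libraries. The share of the most abundant gene, from 13.2% to 35.9% of gene counts, had an r of 0.046 with the share of the short RNAs (permutation p = 0.82).

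**Figure D3:**
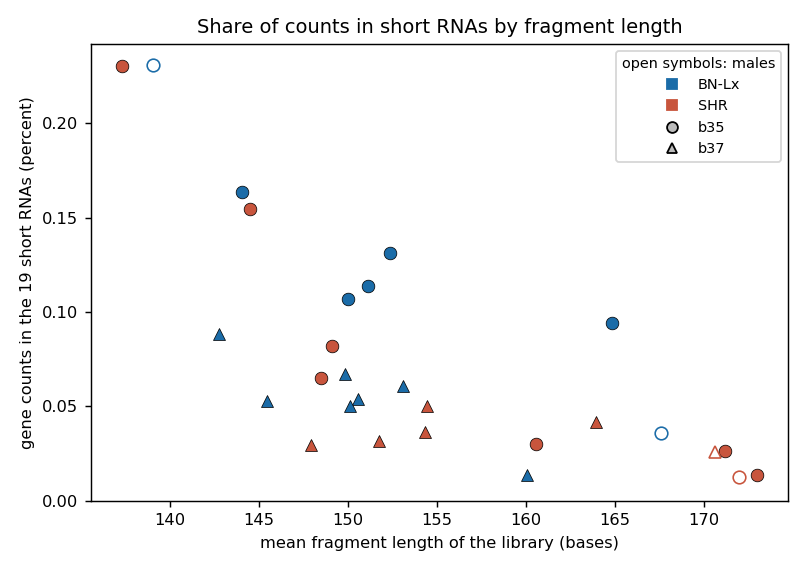
Percent of gene counts in the 19 short RNAs (y axis) against the mean fragment length in bases (x axis), a point per library, coloured by strain, with circles for b35, triangles for b37 and open symbols for males. The 2 libraries with over 0.2% have fragments under 140 bases, and the 4 libraries with the longest fragments have under 0.03%.

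The extremes lay in single libraries of several groups. SHR pre-estrus replicate 10 had 0.230% of counts in the short RNAs and a fragment length of 137.3 bases, and BN-Lx male replicate 1 had 0.231% and 139.1 bases. The other BN-Lx male had 0.0357% and 167.6 bases. Both SHR males had long fragments, 170.6 and 171.9 bases, and low shares, 0.0258% and 0.0126%.

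Comparing the females of the strains, the short RNAs held 0.0830% ± 0.0414 of counts in BN-Lx and 0.0659% ± 0.0639 in SHR (SD, n = 12 per strain), and the difference did not pass a two-sided permutation test (p = 0.45, adjusted p = 0.83). It was -0.0359 percentage points within b35 (exact permutation p = 0.36) and -0.0174 within b37 (exact permutation p = 0.14). Mean fragment length of the same libraries was 151.2 ± 6.25 bases for BN-Lx and 154.7 ± 10.7 bases for SHR (permutation p = 0.34).

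With fragment length as a term in the fit, it had a negative coefficient for all 19 short RNAs. The effect was called for 10 of them, against 0.458% of all genes tested. The 19 rows hold 13 distinct count profiles and identical rows count separately, so the 10 need not be separate measurements. It was called for 38 of the 121 RNAs longer than 110 and up to 200 bases and 8 of the 13859 longer ones. The median effect per 10 bases of fragment length was -0.92 on the log2 scale for the short RNAs, -0.50 for the next length class and 0.01 for the longer RNAs. ENSRNOG00000056608 changed by -0.80 per 10 bases, and the called rows ranged from -1.03 to -0.80.

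In that fit, 7 of the 19 short RNAs were called between strains in females, against 8.93% of all genes. Nothing is read from that number. Of the 7, 3 were chosen through their level in SHR, and the other 4 share the same counts. The 3 rows already called kept their direction, with 10.06 for ENSRNOG00000052740, 7.06 for ENSRNOG00000061343 and 1.82 for ENSRNOG00000059608 on the log2 scale. The other 4 were the identical 93-base rows, lower in SHR by 0.73 each: their log2 difference was -0.73 (SE 0.23, adjusted p = 0.046). The sum of the 6 rows of 93 bases was -0.36 (SE 0.23, adjusted p = 0.43) and was not called. The part of fragment length in the differences was not tested beyond this term.

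**Figure D4:**
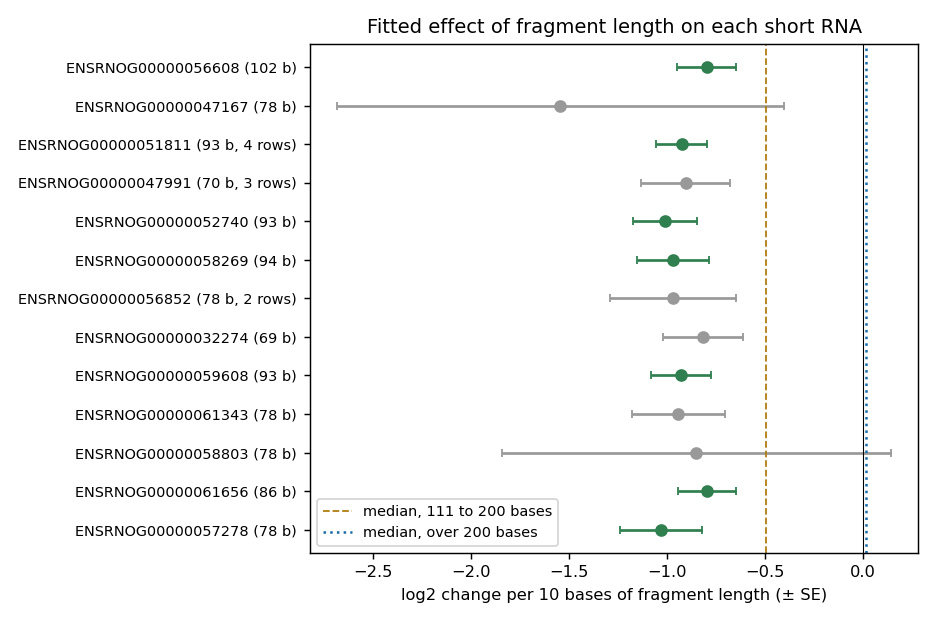
Fitted log2 change per 10 bases of fragment length with its SE (x axis) for the 13 distinct count profiles (y axis, identifier, length in bases and number of identical rows), green where the adjusted p was under 0.05. All points lie below 0, while the dashed line marks the median of RNAs longer than 110 and up to 200 bases (-0.50) and the dotted line that of longer RNAs (0.01).

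Fragment length also entered the deposited TPM values, a level per length. TPM divides a count by the effective length, the number of positions at which a fragment could start, and this was small or 0 for RNAs shorter than most fragments. The effective length of the 102-base RNA ran from 0 to 6.72 bases. Over all members, the effective length was 0 in 370 of 532 values, and TPM was then 0, although 313 of those had 10 or more counts, up to 12090. The 70-base rows had an effective length of 0 in all 28 libraries, with up to 4182 counts each.

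Where the effective length was above 0, the TPM of the members together was high, though not that of every row. ENSRNOG00000058803 had a TPM of at most 30.2. In 15 libraries the 19 RNAs made up more than 10% of the TPM total, and in BN-Lx male replicate 1 they made up 22.0% of TPM with 0.231% of the counts. In the 4 libraries with fragments of 170.6 bases or more, their TPM summed to 0. Levels per length could therefore not be compared between these RNAs, and counts were used throughout.

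Among the rows of 78 bases, ENSRNOG00000047167 had the largest spread between libraries of any short RNA. It had 642.0 to 12090 counts (13.8 to 280.7 CPM) in 10 libraries and at most 53.9 counts in the other 18, with 0 in 10 of those. In 7 of the 8 groups, libraries with at least 100 counts stood beside libraries with fewer. At BN-Lx pre-estrus its level was 91.2, 0.0225, 280.7 and 0.0563 CPM, and at BN-Lx estrus 0 in all 4 libraries. At BN-Lx post-estrus it was 152.9 CPM in replicate 5 and 0 in the other 3. The SHR females had 0.00763, 0.0973, 15.9 and 0 CPM at pre-estrus, 0.0602, 43.4, 0.124 and 13.8 CPM at estrus, and 0, 0.103, 28.2 and 114.0 CPM at post-estrus. Of the 10 libraries with at least 100 counts, 8 had the suffix b35 and 2 the suffix b37.

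The rows ENSRNOG00000056852, its identical partner and ENSRNOG00000058803, also of 78 bases, had equal counts in some libraries and unequal counts in others. ENSRNOG00000058803 equalled the pair in 16 libraries and had 0 counts in 10. In SHR post-estrus replicate 8 it had 1055 counts while each of the pair had 3.18, and in SHR pre-estrus replicate 10 it had 6.57 while each of the pair had 1983. ENSRNOG00000059948 equalled ENSRNOG00000058803 in 8 of the 9 BN-Lx libraries in which it had a count.

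**Figure D5:**
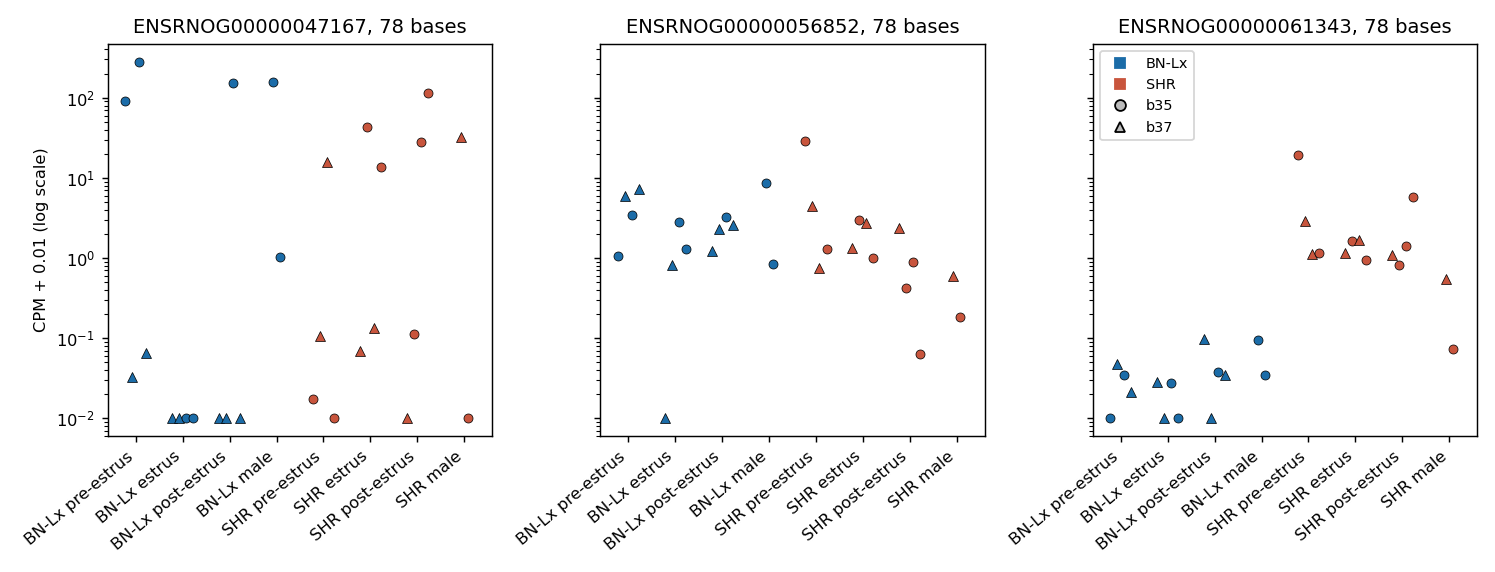
CPM plus 0.01 (log scale) in each library, by strain and stage or sex, for 3 rows of 78 bases, with circles for b35 and triangles for b37. ENSRNOG00000047167 (left) falls into libraries above 10 CPM and libraries near 1 CPM or below in both strains, ENSRNOG00000056852 (middle) overlaps between strains, and ENSRNOG00000061343 (right) does not overlap between the females of the strains.

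The biological coefficient of variation, edgeR's estimate of the spread between libraries beyond counting error, had a median of 77.2% for the 19 short RNAs. It was 47.5% for the RNAs longer than 110 and up to 200 bases and 17.9% for longer ones. The highest values were those of ENSRNOG00000047167 (229.9%) and ENSRNOG00000058803 (225.6%), and the lowest those of ENSRNOG00000056608 (60.2%) and ENSRNOG00000061656 (61.9%), a row of 86 bases. With fragment length in the fit the medians were 57.5%, 41.0% and 18.2%. Within female groups, the coefficient of variation of CPM had a median of 55.5% for the short RNAs, 52.2% for the next class and 16.1% for longer RNAs.

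Across the estrous cycle, 0 of the 19 short RNAs passed edgeR's test in BN-Lx or in SHR, and 0 passed for a stage effect that differed between the strains, as did 0% of all genes in each test. At an unadjusted p under 0.05 there were 0, 3 and 0 short RNAs, beside 3.25%, 0.64% and 1.48% of all genes. The 3 in SHR were ENSRNOG00000057278 and the identical rows ENSRNOG00000056852 and ENSRNOG00000058531, so they are not 3 separate measurements. DESeq2 and limma also called 0 of the 19 in each of these tests. At BN-Lx estrus all 19 rows, not independent of each other, had a lower fitted level than at pre-estrus, with a median of -1.10 on the log2 scale. In SHR 18 of 19 did, with a median of -1.45, and the pre-estrus group there includes replicate 10. Over all genes tested the medians were 0.01 and -0.01, and none of the 19 differences was called. With fragment length in the fit, these medians were -0.94 and -0.47, with 19 and 14 rows below 0.

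The rows with the lowest p in BN-Lx were ENSRNOG00000047167 (adjusted p = 0.98, edgeR's quasi-likelihood test), with the levels given above, and the 70-base ENSRNOG00000047991. The latter stood at 20.4, 22.8, 56.1 and 28.6 CPM at pre-estrus, at 11.8, 5.05, 11.9 and 7.26 CPM at estrus and at 8.16, 10.1, 29.0 and 15.7 CPM at post-estrus. All 4 pre-estrus libraries were above all 4 estrus libraries, a pattern that 6 of the 19 rows showed in TMM-scaled CPM, against 0.998% of all genes tested. The 6 include the 3 identical 70-base rows, and none was called for stage. ENSRNOG00000047991 had a largest difference between stages of 1.83 on the log2 scale (edgeR adjusted p = 0.98). In SHR they were ENSRNOG00000056852 and ENSRNOG00000057278, both with an adjusted p of 1. ENSRNOG00000057278 stood at 7.99 CPM in replicate 10 and at most 0.925 CPM in the other 3 libraries at pre-estrus, at 0.550, 0.447, 0.900 and 0.0859 CPM at estrus and at 0.486, 0.149, 0.516 and 1.56 CPM at post-estrus, so that the groups overlapped and replicate 10 alone set the high pre-estrus value. For the strain-by-stage test ENSRNOG00000047167 and ENSRNOG00000056852 had the lowest p (both with an adjusted p of 0.97).

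The share of counts in the short RNAs did not differ between stages beyond the spread of libraries. In BN-Lx it was 0.0909% ± 0.0330 at pre-estrus, 0.0720% ± 0.0473 at estrus and 0.0861% ± 0.0519 at post-estrus (SD, n = 4 each, exact permutation p = 0.83). In SHR it was 0.0866% ± 0.0960, 0.0450% ± 0.0256 and 0.0662% ± 0.0626 (n = 4 each, exact permutation p = 0.78). The SHR pre-estrus mean rests on replicate 10, since the other 3 libraries were at 0.0502% or below.

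Between sexes, 0 of the 19 passed edgeR's test, against 0.0331% of all genes tested. At an unadjusted p under 0.05 there were 2 short RNAs, beside 3.31% of all genes. DESeq2 and limma also called 0. ENSRNOG00000047167 and ENSRNOG00000059608 had the lowest p, both with an adjusted p of 1. ENSRNOG00000059608 stood at 1.76 and 0.249 CPM in the BN-Lx males and at 0.653 and 0.150 CPM in the SHR males, and its difference of males from females was -1.34 on the log2 scale. ENSRNOG00000047167 stood at 156.2 and 1.02 CPM in the BN-Lx males and at 32.1 and 0 CPM in the SHR males. Of the 19 differences, not independent of each other, 15 were below 0, with a median of -0.89. The median was -0.42 for the RNAs longer than 110 and up to 200 bases and -0.02 over all genes. Of the 4 males, 3 had fragments of 167.6 bases or more. With fragment length in the fit, 0 of the 19 were called, 12 were below 0 and the median was -0.19.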

How the data were processed

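RNA from whole rat brains was sequenced as 28 stranded, ribosomal RNA-depleted paired-end libraries, per the labels' protocols. Those protocols mention only males, whereas the labels of the samples name both sexes and were used for grouping. The tools were cutadapt and RSEM, per the submitters' processing notes. Tool versions, build and annotation: not given in the sources used here. Expected counts, as deposited, are RSEM's estimates, in which the authors' run divided reads between rows they fit, with no normalization. The deposited TPM values were used only to describe the effect of effective length. CPM was computed from expected counts over gene rows without the 92 spike-in rows.

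The members and lists were chosen with earlier results of these data known. Expected counts were rounded, genes kept by filterByExpr (count minimum 10), scaled by TMM and fitted with edgeR 4.0.16 (R 4.3.3) in a robust quasi-likelihood model over all 28 libraries, with 8 groups and the suffix as terms and 19 residual degrees of freedom. All 19 short RNAs were among the 18134 genes tested. P-values were adjusted over all genes by Benjamini-Hochberg, and a call is an adjusted p under 0.05. Standard errors were derived from the F statistic. Permutation tests used 100000 resamples, or all 34650 splits for stages. Mean fragment length is the median over 3564 single-transcript genes above 3000 bases of length minus effective length plus 1. The method was tested on simulated data. DESeq2 1.42.0 and limma 3.58.1 were alternatives, beside those on scaling, filter, covariates, suffix, replicate block and libraries left out. Named rows were the 6 with the highest level, up to 2 called rows in each direction or the 2 lowest p, and the 2 highest and 2 lowest in spread. No reference pairing these identifiers with names or sequences was at hand, so none of the 19 is named and no sequence is given.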

Additional observations from a re-analysis of the deposited data

Results flagged for a closer look

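In groups of 4 libraries, 25 of 90 tests found a library far from the other 3 by Dixon's criterion for the gap to the nearest library over the group's range. A chance rate of about 1 in 20 groups holds for normally distributed values. The levels tested were not transformed and include groups at 0 in all but 1 library, so the 25 cannot be set against that rate. The tests are not independent, since short RNAs of a library move together and identical rows share counts. The values are given with no explanation.

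SHR pre-estrus replicate 10 accounted for 11 of the 25. It stood above the other 3 libraries of its group in the share of counts in short RNAs (0.230%, others at most 0.0502%), in ENSRNOG00000056608 (1547 CPM), in ENSRNOG00000051811 and ENSRNOG00000052740 (87.4 CPM each), in ENSRNOG00000058269 (19.8 CPM), in ENSRNOG00000056852 (28.5 CPM), in ENSRNOG00000032274 (8.63 CPM), in ENSRNOG00000059608 (16.6 CPM), in ENSRNOG00000061343 (19.4 CPM), in ENSRNOG00000061656 (7.07 CPM) and in ENSRNOG00000057278 (7.99 CPM). In the same group, replicate 12 stood apart in ENSRNOG00000047167 (15.9 CPM).

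SHR post-estrus replicate 8 was high in ENSRNOG00000047991 (54.4 CPM), ENSRNOG00000032274 (10.3 CPM), ENSRNOG00000061343 (5.84 CPM) and ENSRNOG00000058803 (17.8 CPM). SHR estrus replicate 9 was low in ENSRNOG00000051811 and ENSRNOG00000052740 (3.64 CPM each), and SHR estrus replicate 11 was the only one of its group with a count in ENSRNOG00000058803 (1.31 CPM).

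BN-Lx post-estrus replicate 5 was high in the share of counts in short RNAs (0.163%), in ENSRNOG00000056608 (1183 CPM) and in ENSRNOG00000047167 (152.9 CPM, others at 0). BN-Lx estrus replicate 4 had the longest fragments of its group (160.1 bases). In ENSRNOG00000052740, BN-Lx estrus replicate 2 (0.0429 CPM) and BN-Lx pre-estrus replicate 7b (0.0735 CPM) were the only libraries of their groups above 0.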

How the results depend on the processing

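Of the 3 short RNAs called between strains in females, ENSRNOG00000052740 and ENSRNOG00000061343 were called under every alternative that gave a value. Both reached the mean of 1 CPM through SHR alone, so each alternative draws on the levels that chose them. In SHR, ENSRNOG00000052740 also has the counts of the identical rows. ENSRNOG00000059608 was not called with limma (log2 1.48), within b35 (1.98) or within b37 (1.39). The count of 3 became 7 with fragment length as a covariate and 7 without SHR pre-estrus replicate 10, and it ranged from 3 to 7 with each library left out. It was 4 with DESeq2, where 12.1% of all genes were called against 9.51%. With the share of the most abundant gene as covariate it was 4, beside 32.6% of all genes. With limma it was 2, beside 12.2% of all genes. Within b35 or b37 alone some groups hold a single library, such as BN-Lx post-estrus in b35 and SHR post-estrus in b37. Counts of calls are not given for those settings. ENSRNOG00000051811, with its identical rows, was called with fragment length as a covariate (-0.73) and without SHR pre-estrus replicate 10 (-1.22). With the share of the most abundant gene as covariate, ENSRNOG00000047991, not called, turned to 0.084. The count of 1 in males became 0 with limma and without a filter on low counts. Over all genes, 4.12% and 0.472% were then called, against 0.8%. The count in males ranged from 0 to 1 with each library left out. The counts of 0 for stage, strain by stage and sex stayed at 0 in all alternatives with more than 1 library in each group. Within b35, BN-Lx post-estrus is replicate 5 alone, so stage calls from that setting cannot be read. The sex difference of ENSRNOG00000047167, not called, turned to -2.76 with limma, -2.99 within b35 and -5.78 without SHR male replicate 1, and ranged up to 7.84 with other libraries left out. Within b37, the correlation of share with fragment length was -0.625 with an adjusted p of 0.14. The correlation with the most abundant gene ranged from -0.068 to 0.240 with each library left out, turning negative without BN-Lx post-estrus replicate 5, BN-Lx pre-estrus replicate 7a or SHR post-estrus replicate 13. Causes of these changes were not tested. With library totals in place of TMM, the median over all genes between strains in females shifted by 0.13 on the log2 scale and 3094 of 3721 calls were higher, against 830 of 1724, while 3 short RNAs were called.

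The deviations of same-numbered libraries of different groups had a median r of -0.124 over 18 pairs, 3 of them above 0.1. Whether these libraries share more than a number is not stated, and a low correlation cannot decide it. With the replicate block, 2 short RNAs were called between strains in females and 0 in males, against 3 and 1. Over all genes, 150 (0.827%) were called in females, against 1724, and 0.281% in males, against 0.8%. ENSRNOG00000059608 was then at 1.17 (adjusted p = 0.72) and the sex difference of ENSRNOG00000047167 at -11.74. With the description number as a term, strain could not be estimated, and b37 alone gave no value for males.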

Other observations

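The sample descriptions also hold a number whose meaning is not stated. In ENSRNOG00000047167, all 4 libraries of a number shared by SHR females at estrus and post-estrus had at least 100 counts, and 0 of the 4 libraries of a number shared by BN-Lx females had as many. The other numbers held by several libraries had both kinds, with 1 of 6, 3 of 5, 1 of 3 and 1 of 3 libraries at 100 counts or more. The SHR number with all 4 libraries at 100 counts held b35 libraries alone, and the BN-Lx number with 0 of 4 held b37 libraries alone. Number, suffix and strain cannot be told apart there. These values were noticed after the data had been seen, and no test was made. Over the 78 pairs of the 13 distinct count profiles, the correlation of log2 levels across the 28 libraries had a median of 0.45 and ran from -0.28 to 0.96, as a description of rows that share libraries and reads.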
